A study of Homo sapiens with 10 samples.

Results

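The 10 genes described here are long noncoding RNAs (lncRNAs): MALAT1, NEAT1, MEG3, H19, KCNQ1OT1, NORAD, OIP5-AS1, LINC00641, LINC00342 and SNHG1. They were taken by symbol from a count table of 46427 genes, chosen by name with their levels and log2 fold changes against vehicle in these libraries already known, and RefSeq annotates 13347 genes of that table as lncRNA. All 10 passed the filter on low counts, which left 19465 genes for testing, 1875 of them lncRNA genes. The cells were neurospheres of ReNcell VM, an immortalized human neural progenitor line, differentiated on laminin for 6 days. Treatment ran through those 6 days with DEP (commonly diethyl phthalate), DProP (commonly di-n-propyl phthalate), DPP or Mix, each labelled 100 µM, or with 0.1% DMSO as vehicle. The labels do not spell out DPP or the make-up of Mix, and they do not say whether 100 µM in Mix is a total. Each of the 5 groups has 2 libraries, each from 6 pooled neurospheres, and nothing says whether the 2 came from separate cultures, so p-values below rest on a spread between library pairs that may be technical. The series asks how short-chain phthalates act on developing neural cells.

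MALAT1 and NEAT1 are transcribed side by side on chromosome 11 and stay in the nucleus, MALAT1 in the speckles where splicing factors gather and NEAT1 as the scaffold of paraspeckles. KCNQ1OT1, H19 and MEG3 are imprinted, each made from a single parental allele, and KCNQ1OT1 silences its neighbours in cis. NORAD and OIP5-AS1 (known as Cyrano in other vertebrates) work largely in the cytoplasm as binding platforms, NORAD for PUMILIO proteins and OIP5-AS1 for the microRNA miR-7. SNHG1 carries small nucleolar RNAs in its introns. Roles of LINC00641 and LINC00342 are left out here.

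RNA-seq used SureSelect RNA Direct, in which probes for the exome capture the library. No source used here lists the capture targets, so the yield of the probes for a lncRNA and the level of its RNA cannot be told apart within a library. Library totals ran from 57222381 to 72973100 counts. Levels are given as CPM, the usual scaling of counts to a common library total, with factors from the trimmed mean of M-values (TMM). Precision for scarce genes is limited by the counts themselves: the Poisson error of a single library is 0.195% of the MALAT1 count in DEP but 25.4% of the LINC00342 count in vehicle. These errors cover counting only.

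The promoters of 4 members are shown because their RNAs took different courses: MALAT1 was lower after treatment, OIP5-AS1 and SNHG1 were higher, and MEG3 overlapped vehicle. Each runs from 250 bases before to 50 bases after an annotated start, 5′ to 3′ on the gene's strand, from RefSeq on GRCh38.p14. For OIP5-AS1 that start is not the gene start given below, 41282697, and the window lies inside the gene. Capitals mark matches on either strand to the 4 motifs searched. These are CCAAT (the CCAAT box), the Sp1-type GC box GGGCGG, the TATA box written as TATAAA, and the cyclic AMP response element TGACGTCA.
MALAT1, chr11:65497488-65497787, plus strand: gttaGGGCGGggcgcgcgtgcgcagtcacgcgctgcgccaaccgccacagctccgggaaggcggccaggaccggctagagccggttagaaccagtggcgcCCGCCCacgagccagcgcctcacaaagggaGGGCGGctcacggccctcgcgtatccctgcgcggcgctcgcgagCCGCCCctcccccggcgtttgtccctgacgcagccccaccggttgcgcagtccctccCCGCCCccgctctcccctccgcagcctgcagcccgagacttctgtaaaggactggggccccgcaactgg
OIP5-AS1, chr15:41283740-41284039, plus strand: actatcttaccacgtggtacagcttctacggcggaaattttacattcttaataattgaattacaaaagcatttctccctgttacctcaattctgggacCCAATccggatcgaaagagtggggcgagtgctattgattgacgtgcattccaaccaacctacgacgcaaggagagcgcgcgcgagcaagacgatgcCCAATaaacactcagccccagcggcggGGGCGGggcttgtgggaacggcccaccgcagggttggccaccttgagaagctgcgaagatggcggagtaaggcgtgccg
SNHG1, chr11:62855836-62856135, minus strand: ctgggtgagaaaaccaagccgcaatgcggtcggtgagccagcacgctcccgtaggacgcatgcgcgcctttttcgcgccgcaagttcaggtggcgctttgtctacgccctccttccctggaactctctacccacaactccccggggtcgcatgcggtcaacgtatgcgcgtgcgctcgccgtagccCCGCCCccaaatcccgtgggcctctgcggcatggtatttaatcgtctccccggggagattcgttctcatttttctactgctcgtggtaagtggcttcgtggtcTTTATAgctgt
MEG3, chr14:100825858-100826157, plus strand: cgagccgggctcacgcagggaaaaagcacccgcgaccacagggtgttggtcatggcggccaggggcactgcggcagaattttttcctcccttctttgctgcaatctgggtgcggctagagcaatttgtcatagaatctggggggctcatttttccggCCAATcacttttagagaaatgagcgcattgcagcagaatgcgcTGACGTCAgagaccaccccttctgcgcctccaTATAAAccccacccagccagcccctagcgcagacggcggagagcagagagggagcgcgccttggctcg

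The MALAT1 window held 5 GC boxes in 73.7% G and C. The OIP5-AS1 window held 2 CCAAT boxes and 1 GC box, and the SNHG1 window 1 GC box and 1 TATAAA. The MEG3 window held 1 CCAAT, 1 TATAAA and 1 TGACGTCA. Among 35116 RefSeq promoter windows of the same length, 45.0% held GGGCGG, 34.6% CCAAT, 11.5% TATAAA and 1.85% TGACGTCA. A match is a run of letters, not a bound site. In all, 7 members matched the RefSeq promoter table, and NEAT1, KCNQ1OT1 and LINC00342 are named without a window.

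Sequence also shows what NORAD and OIP5-AS1 are known for. The longest annotated NORAD transcript (GENCODE 29, 5339 bases) holds 15 copies of the PUMILIO motif TGTANATA on its own strand, or 2.81 per kb. Among the longest transcripts of the other 9 members the count was 9 in KCNQ1OT1 (91667 bases), 6 in NEAT1, 1 each in MEG3, OIP5-AS1 and SNHG1, and 0 in MALAT1, H19, LINC00641 and LINC00342. A pair of neighbouring NORAD sites is shown, with the motif in capitals and positions counted from 1 at the transcript's 5′ end.
NORAD, motif at 3275 to 3282: ctgtgctgTGTATATAgtgtatat
NORAD, motif at 3284 to 3291: gtatatagTGTATATAagcggaca
The longest OIP5-AS1 transcript (8829 bases) holds 3 matches to the seed of miR-7-5p. The miRNA is printed with its seed, bases 2 to 8, in capitals, and the matches with the letters that pair with the seed in capitals.
hsa-miR-7-5p: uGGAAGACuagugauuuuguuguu
OIP5-AS1, seed match at 724: acttcagggtttaaaaaaaatGTCTTCCag
OIP5-AS1, seed match at 2887: aagaacaacaaaatcaccaatGTCTTCCat
OIP5-AS1, seed match at 8167: gtcatatcctgaatatagtttGTCTTCCcc
At 2887, 15 of the 16 bases of miR-7-5p that follow the seed also had a complementary base, in the best of 6 ungapped alignments with the target shifted by 0 to 5 bases. The same count was 5 at 724 and 7 at 8167.

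The word abundant fits MALAT1 alone without reservation. Its mean of 340322 counts per library ranked 4 of 28662 genes with a count, and 2 of 22598 per kb of exon. NORAD, with 3995 counts, ranked 4333 by count and 4292 per kb. The other 8 lay lower per kb, from SNHG1 at rank 11990 to MEG3 at rank 18115. Per kb of exon, and as a mean over the 8 treated libraries, MALAT1 stood at 404 CPM, NORAD at 11.4, SNHG1 at 1.36, LINC00641 at 0.736, NEAT1 at 0.705, OIP5-AS1 at 0.507, LINC00342 at 0.454, H19 at 0.290, KCNQ1OT1 at 0.250 and MEG3 at 0.0410. In vehicle the same quantity was 1358 CPM per kb for MALAT1, 10.3 for NORAD, 0.811 for SNHG1 and 0.301 for H19, and between 0.0557 (MEG3) and 0.221 (NEAT1) for the other 6.

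Markers matched the labelled line: SOX2, NES, VIM and GFAP each had at least 35892 counts in every library, and TUBB3 and MAP2 at least 15457. Of the markers of other cell types, PTPRC and AIF1 (microglia and blood), PECAM1 (endothelium) and KRT5 (epithelium) were at 0, and CX3CR1 (microglia) had 0 to 17 counts. The other endothelial markers had counts, 408 to 2702 for CLDN5 and 13 to 233 for CDH5, as did the epithelial EPCAM with 28 to 76. Markers of the oligodendrocyte lineage also had counts, 60 to 191 for PDGFRA, 25 to 90 for OLIG1, 6 to 55 for MBP and 7 to 23 for OLIG2. In CPM of the library total, CLDN5 averaged 10.1 to 24.2 in the treated groups and 40.6 in vehicle, CDH5 0.514 to 1.75 and 3.36, and EPCAM 0.737 to 1.09 and 0.482. OLIG1 averaged 0.529 to 1.19 in the treated groups and 0.841 in vehicle, and OLIG2 0.135 to 0.314 and 0.238. With DEP, DProP and DPP, with Mix and in vehicle, PDGFRA averaged 0.911 to 1.48, 2.54 and 1.24, and MBP 0.193 to 0.257, 0.717 and 0.418. All 3 mesenchymal markers, like CLDN5 and CDH5, averaged lower in the treated groups, as MALAT1 did. On that scale, which is without TMM factors, ACTA2 averaged 18.7 to 21.6 in the treated groups and 55.6 in vehicle, TAGLN 3.59 to 5.74 and 19.1, and COL1A1 3.58 to 5.49 and 6.13. Among the neural markers, GFAP averaged 2453 to 2739.8 in the treated groups and 4267 in vehicle, and VIM 1396 to 1424 and 2463. SOX2, NES, PAX6, FABP7, TUBB3, STMN2 and ELAVL3 were also lower in every treated group, but other neural markers were not. S100B averaged 25.9 to 27.8 in the treated groups and 27.0 in vehicle. With DEP, DProP and DPP, with Mix and in vehicle, AQP4 averaged 181 to 234, 459 and 385, and HES1 58.8 to 61.9, 71.1 and 70.4. DCX averaged 68.3 to 139.9, 164 and 162, and MAP2 642 to 711, 798 and 797. The vehicle libraries stood apart in other ways. Genes of the mitochondrial chromosome, rRNA included, took 0.296% to 0.354% of counts in treated libraries and 0.116% to 0.149% in vehicle. Between 2574 and 2871 lncRNA genes had a count in treated libraries, against 1878 and 1884 in vehicle. Without MALAT1, lncRNA genes made up 0.389% to 0.415% of counts in treated libraries, against 0.319% and 0.323% in vehicle. The part of these differences in the results below was not tested, and whatever else set the vehicle pair apart cannot be told apart from the absence of treatment.

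Members were chosen with their values against vehicle known, so their differences from vehicle are a description. In an edgeR quasi-likelihood fit of all 10 libraries with Benjamini-Hochberg adjustment over 19465 genes, a gene past an adjusted p of 0.05 is called. With DEP 7 members were called, 6 higher and 1 lower, where 23.6% of all tested genes were called, 10.1% higher and 13.5% lower. With DProP 7 were called, 6 higher and 1 lower, against 32.2% of all genes, 14.7% higher and 17.5% lower. With DPP 8 were called, 7 higher and 1 lower, against 36.2%, 16.7% higher and 19.5% lower. With Mix 7 were called, 6 higher and 1 lower, against 20.4%, 9.71% higher and 10.7% lower. Nothing is read from these counts, which the choice of members shaped. In 7 members all 8 treated libraries lay above both vehicle libraries, in 1 (MALAT1) all lay below, and in 2 (MEG3 and H19) they overlapped. Of all tested genes 17.3% lay above and 16.6% below, and of the tested lncRNA genes 36.6% lay above and 2.13% below.

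**Figure D1:**
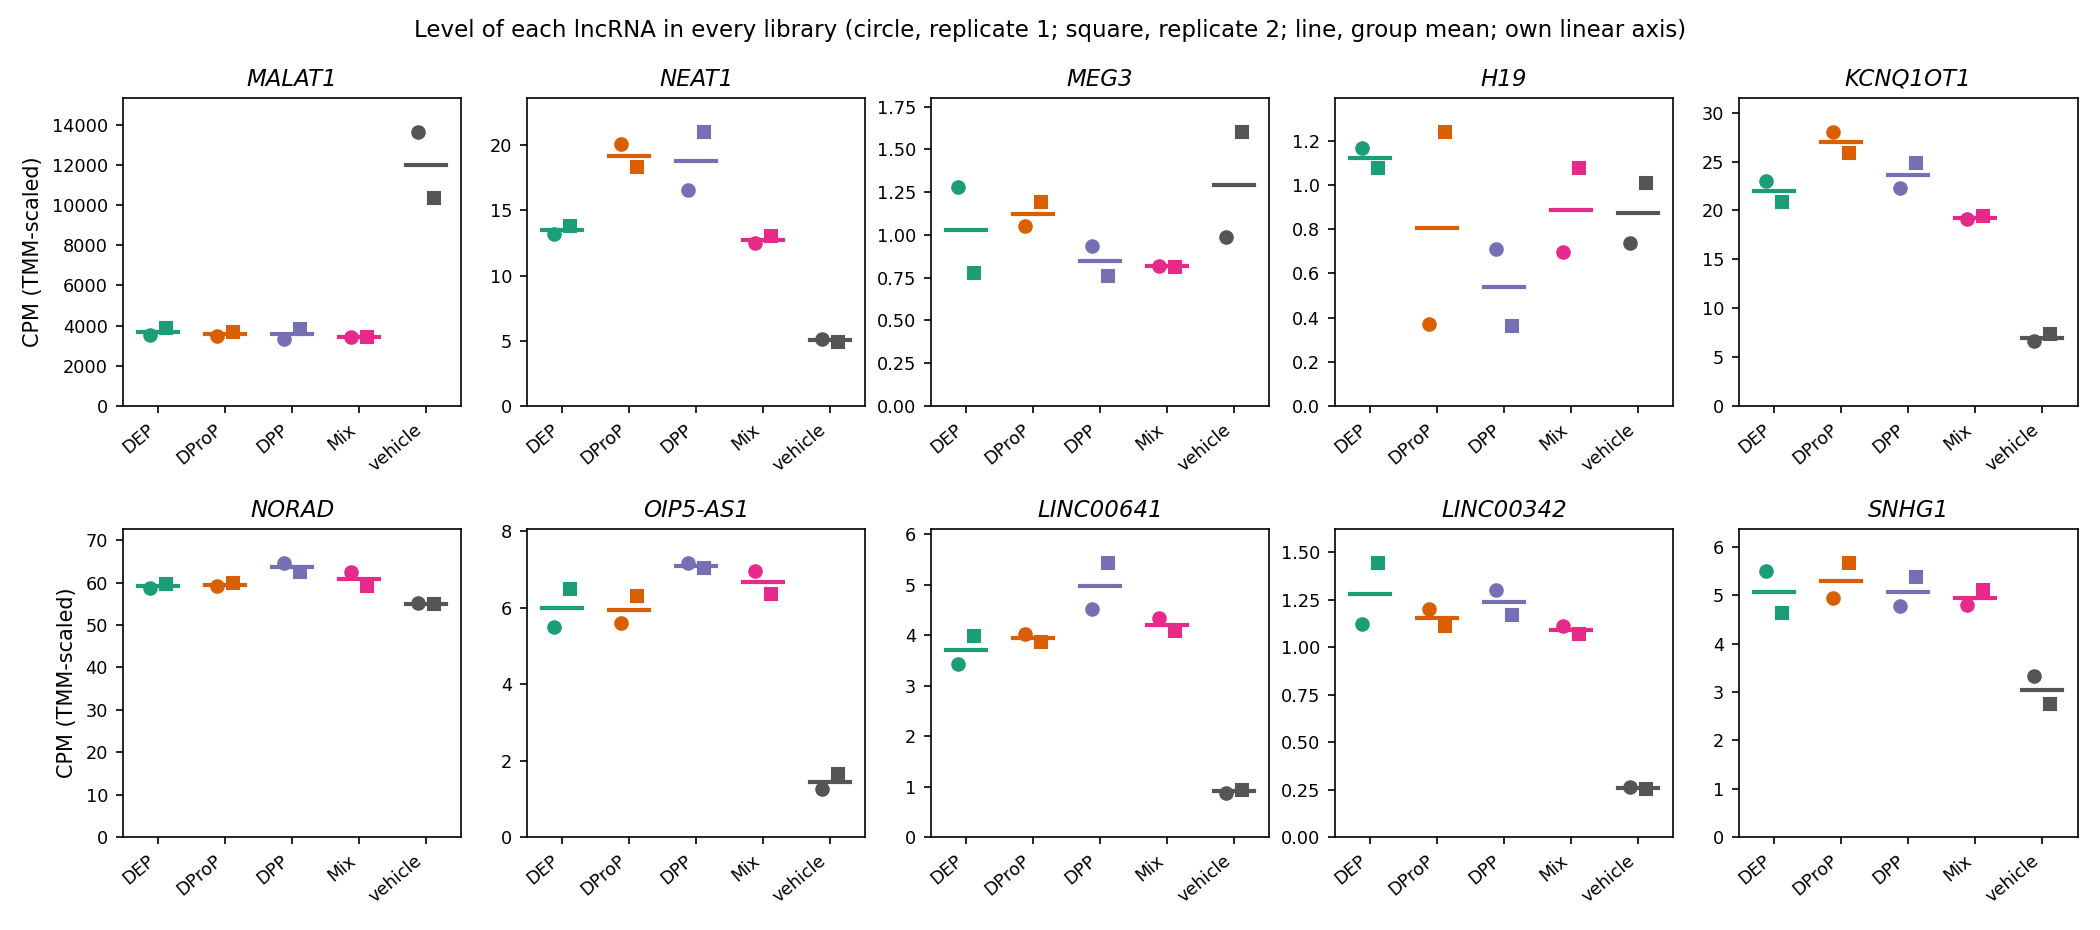
Level of each lncRNA in TMM-scaled CPM (linear axis from 0, its own scale in each panel) in the 2 libraries of each group, with treatments to the left of vehicle and a line at the group mean. MALAT1 sits at 3349 to 3869 CPM in treated libraries and at 10346 and 13638 in vehicle, while NEAT1, KCNQ1OT1, OIP5-AS1, LINC00641, LINC00342 and SNHG1, and by a small margin NORAD, are higher in all 8 treated libraries.

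MALAT1, which marks nuclear speckles and binds splicing factors (NCBI gene 378938, chr11:65497738-65506516), had the highest mean count of all lncRNA genes. It stood at 3530.1 and 3869 CPM with DEP, 3472 and 3660.4 with DProP, 3349 and 3812 with DPP, 3423 and 3419.9 with Mix, and 13638 and 10346 with vehicle. The 8 treated libraries fall within a narrow band, and both vehicle libraries lie far above it and also far from each other. The log2 fold change was -1.70 with DEP (SE 0.12, 95% interval -1.95 to -1.44), -1.75 with DProP (SE 0.12), -1.74 with DPP (SE 0.12) and -1.81 with Mix (SE 0.12), or between 3.24-fold and 3.50-fold lower. In counts, MALAT1 alone made up 0.342% to 0.394% of the treated libraries and 1.25% and 0.946% of the vehicle libraries. Without vehicle replicate 1 the difference was smaller but still called: leaving out any single library gave log2 values between -1.88 and -1.49 for DEP and between -1.99 and -1.60 for Mix. In a bulk sample, fewer cells of a type that holds the RNA and less of it per cell cannot be told apart.

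NEAT1 (gene 283131, chr11:65422798-65445540), the architectural RNA of paraspeckles, lies 52198 bases from MALAT1. It stood at 13.2 and 13.8 CPM with DEP, 20.1 and 18.3 with DProP, 16.6 and 21.0 with DPP, 12.5 and 13.0 with Mix, and 5.16 and 4.90 with vehicle. Every treated library was above both vehicle libraries, and the DProP and DPP libraries were all above the DEP and Mix libraries. The log2 fold change against vehicle was 1.42 with DEP, 1.93 with DProP, 1.90 with DPP and 1.34 with Mix (SE 0.12 each), 2.53-fold to 3.81-fold higher. The neighbours thus differed from vehicle in opposite directions in all 8 treated libraries. Counts of NEAT1 per 1000 counts of MALAT1 were 3.57 to 5.79 in treated libraries and 0.379 and 0.473 in vehicle. Of the nearby protein-coding genes, LTBP3, which binds latent TGF-beta, fell with all 4 treatments (log2 fold change -0.41, -0.65, -0.54 and -0.42, largest adjusted p = 0.00333 by edgeR). On the NEAT1 side, FRMD8 was not called with any treatment, at -0.16, -0.09, -0.08 and 0.03. Next to it SLC25A45, a mitochondrial carrier, rose with DEP, DProP and DPP (0.53, 0.70 and 0.87, adjusted p = 0.00978, 0.00150 and 2.75e-04 by edgeR) and had -0.10 with Mix (adjusted p = 0.634).

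KCNQ1OT1 (gene 10984, chr11:2608328-2699994) is read antisense from within KCNQ1 and silences neighbours in cis on the paternal allele. It stood at 23.0 and 20.9 CPM with DEP, 28.0 and 25.9 with DProP, 22.3 and 24.9 with DPP, 19.1 and 19.4 with Mix, and 6.59 and 7.35 with vehicle. The treated libraries did not overlap vehicle, and the DProP libraries were the highest. On the log2 scale the difference from vehicle was 1.66 with DEP, 1.95 with DProP, 1.76 with DPP and 1.46 with Mix (SE 0.10 each), 2.76-fold to 3.87-fold higher. No source used here says whether the counting used strand, and reads of KCNQ1 and KCNQ1OT1 cannot then be told apart. KCNQ1 itself had 0 to 13 counts per library. The ratio of KCNQ1OT1 to NEAT1 counts was 1.19 to 1.75 in treated libraries and 1.28 and 1.50 in vehicle, which overlap.

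MEG3 (gene 55384, chr14:100826108-100861026), a maternally expressed growth suppressor, was scarce. It stood at 1.28 and 0.778 CPM with DEP, 1.05 and 1.19 with DProP, 0.935 and 0.757 with DPP, 0.819 and 0.813 with Mix, and 0.986 and 1.60 with vehicle. Vehicle replicate 1 lies among the DEP and DProP libraries, while all DPP and Mix libraries lie below both vehicle libraries. Against vehicle the log2 fold change was -0.32 with DEP, -0.20 with DProP, -0.61 with DPP and -0.66 with Mix (SE 0.31 each), with 95% intervals that reach from -1.34 to 0.46.

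H19 (gene 283120, chr11:1995176-2001266), the maternally expressed RNA opposite IGF2, was the most variable. It stood at 1.17 and 1.08 CPM with DEP, 0.371 and 1.24 with DProP, 0.711 and 0.363 with DPP, 0.696 and 1.08 with Mix, and 0.736 and 1.01 with vehicle. Both DEP libraries lie above vehicle, both DPP libraries below it, and DProP and Mix overlap it. In DProP the SD of the pair was 76.4% of its mean, where counting alone gives 13.3%. Against vehicle the log2 fold change ran from -0.69 with DPP (95% interval -1.81 to 0.43) to 0.37 with DEP (-0.70 to 1.44). IGF2 did not pass the filter, with 0 to 8 counts.

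NORAD (gene 647979, chr20:36045618-36050960), which holds PUMILIO proteins away from mitotic and DNA repair transcripts, was nearly level. It stood at 58.8 and 59.7 CPM with DEP, 59.2 and 59.8 with DProP, 64.5 and 62.6 with DPP, 62.5 and 59.2 with Mix, and 55.1 and 55.0 with vehicle. All treated libraries lay above both vehicle libraries, by a small margin. The fitted difference from vehicle, in log2, was 0.11, 0.11, 0.21 and 0.14 (SE 0.06 each), and only DPP was called. When libraries were scaled by TMM over lncRNA genes alone, these values turned to -0.40, -0.40, -0.31 and -0.21, and that scaling moved the median of all genes by -0.36 to -0.51. The NORAD call with DPP was lost or reversed in 5 of 20 alternatives.

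OIP5-AS1 (gene 729082, chr15:41282697-41313338), the RNA that pairs with miR-7 at the site printed above, stood at 5.50 and 6.48 CPM with DEP, 5.59 and 6.30 with DProP, 7.16 and 7.03 with DPP, 6.97 and 6.37 with Mix, and 1.25 and 1.64 with vehicle. The lowest treated library was more than 3 times the highest vehicle library. In log2, the difference from vehicle was 2.05 with DEP, 2.04 with DProP, 2.30 with DPP and 2.21 with Mix (SE 0.17 each). OIP5, which it overlaps antisense, had 35 to 181 counts and was called higher with DProP and DPP (log2 fold change 1.32 and 1.32, adjusted p = 0.00898 and 0.00773 by edgeR), with 0.88 for DEP and 0.10 for Mix (adjusted p = 0.0701 and 0.877). Without strand, reads in the overlap cannot be assigned. CHP1, a calcineurin-like protein gene 810 bases away on the other side, was not called, at 0.06, 0.06, 0.10 and 0.11.

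LINC00641 (gene 283624, chr14:21200079-21206900) stood at 3.43 and 3.98 CPM with DEP, 4.03 and 3.87 with DProP, 4.52 and 5.42 with DPP, 4.34 and 4.08 with Mix, and 0.876 and 0.937 with vehicle. The groups did not overlap vehicle, and DPP was highest. Relative to vehicle the log2 fold change was 2.03, 2.12, 2.45 and 2.21 (SE 0.18 each). LINC00342 (gene 150759, chr2:95807052-95826981) stood at 1.12 and 1.44 CPM with DEP, 1.20 and 1.11 with DProP, 1.30 and 1.17 with DPP, 1.11 and 1.07 with Mix, and 0.266 and 0.252 with vehicle. These rest on 67 to 102 counts in treated libraries and on 17 and 14 in vehicle. Relative to vehicle the log2 fold change was 2.29, 2.14, 2.24 and 2.06 (SE 0.27 each). SNHG1 (gene 23642, chr11:62851978-62855885) stood at 5.51 and 4.64 CPM with DEP, 4.94 and 5.66 with DProP, 4.77 and 5.39 with DPP, 4.80 and 5.11 with Mix, and 3.33 and 2.76 with vehicle. Set against vehicle, the log2 fold change was 0.74, 0.80, 0.74 and 0.70 (SE 0.16 each), close to the middle of all tested lncRNA genes. With TMM over lncRNA genes alone these values were 0.24, 0.29, 0.22 and 0.34. SNHG1 was not called in 3, 1, 1 and 3 of 20 alternatives with DEP, DProP, DPP and Mix.

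**Figure D2:**
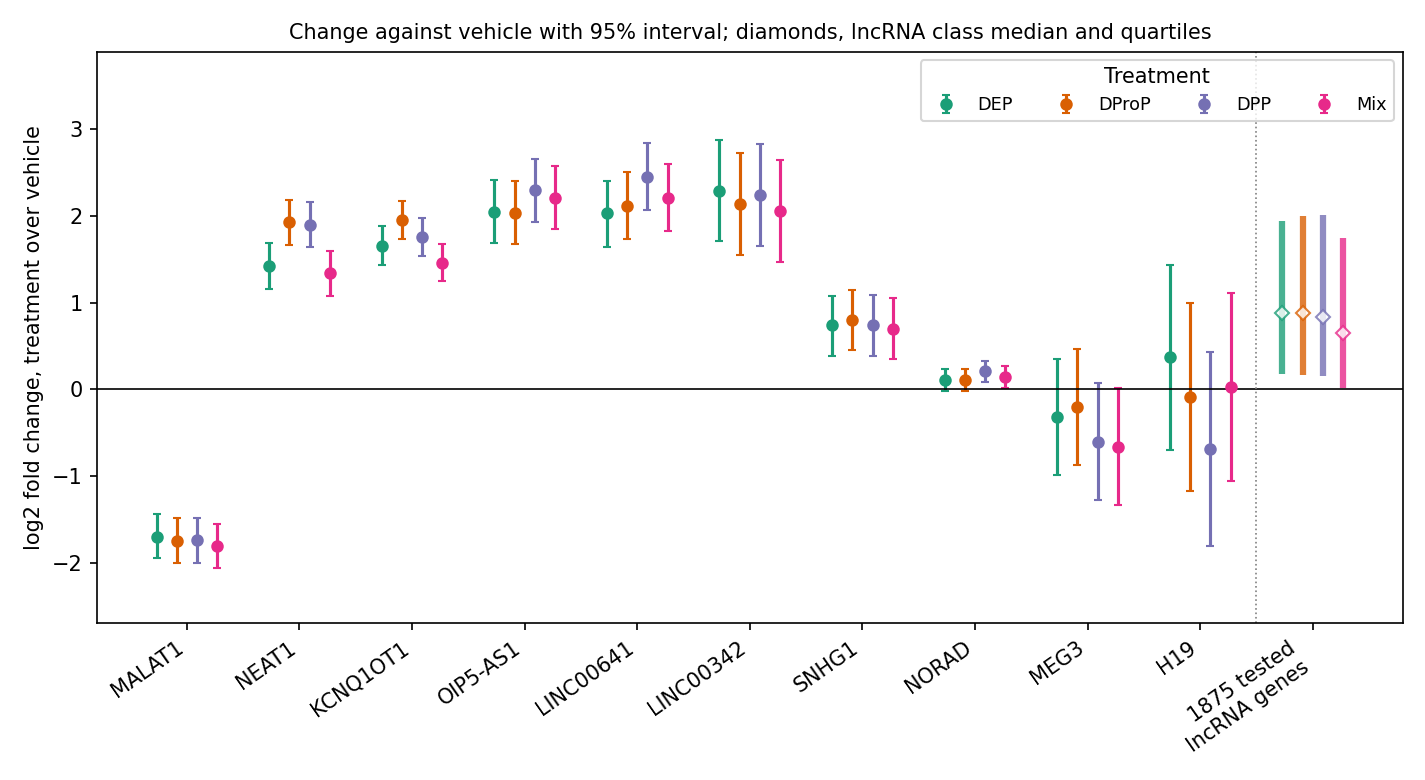
Log2 fold change of each lncRNA for the 4 treatments over vehicle, with 95% intervals, and on the right the median (diamond) and quartiles (bar) of the 1875 tested lncRNA genes. MALAT1 lies at -1.70 to -1.81, the class medians at 0.65 to 0.88, and OIP5-AS1, LINC00641 and LINC00342 above 2 on the log2 scale.

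Most lncRNA genes were higher in treated than in vehicle libraries, so the members are set against their class. The median log2 fold change of the 1875 tested lncRNA genes was 0.88 with DEP, 0.88 with DProP, 0.84 with DPP and 0.65 with Mix, against 0.01 to 0.02 for all tested genes. Setting the 196 to 204 of these genes that had no count in a group to the bound given by a floor of 3 counts over the group moved the lncRNA medians to 0.88, 0.86, 0.85 and 0.65. The median of the 10 members was 1.08, 1.36, 1.25 and 1.02. MALAT1 lay at percentile 0.907 of the class with DEP and 1.44 with Mix. OIP5-AS1, LINC00641 and LINC00342 lay between percentiles 76.3 and 82.7, KCNQ1OT1 between 68.6 and 74.0, NEAT1 between 62.9 and 73.4, SNHG1 between 46.3 and 51.3 and NORAD between 22.2 and 30.7. In the class, the difference was smaller for abundant genes. With DEP the median was 1.80 in the 469 genes with the lowest mean counts and 0.23 in the 469 with the highest, and with Mix it was 1.48 and 0.16. With the same floor the lowest 469 had 1.62 with DEP and 1.29 with Mix. It was also smaller at high GC content, at 1.02 in the 201 genes of lowest GC and 0.25 in the 201 of highest GC with DEP, where 40.3% of the longest MALAT1 transcript is G or C. Among the 20 lncRNA genes with the most counts, MALAT1 had the lowest log2 fold change with every treatment. The second by count, MIRLET7BHG, had -0.46, -0.39, -0.69 and -0.27, and the readthrough gene INO80B-WBP1 had -0.73, -0.71, -0.67 and -0.65.

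**Figure D3:**
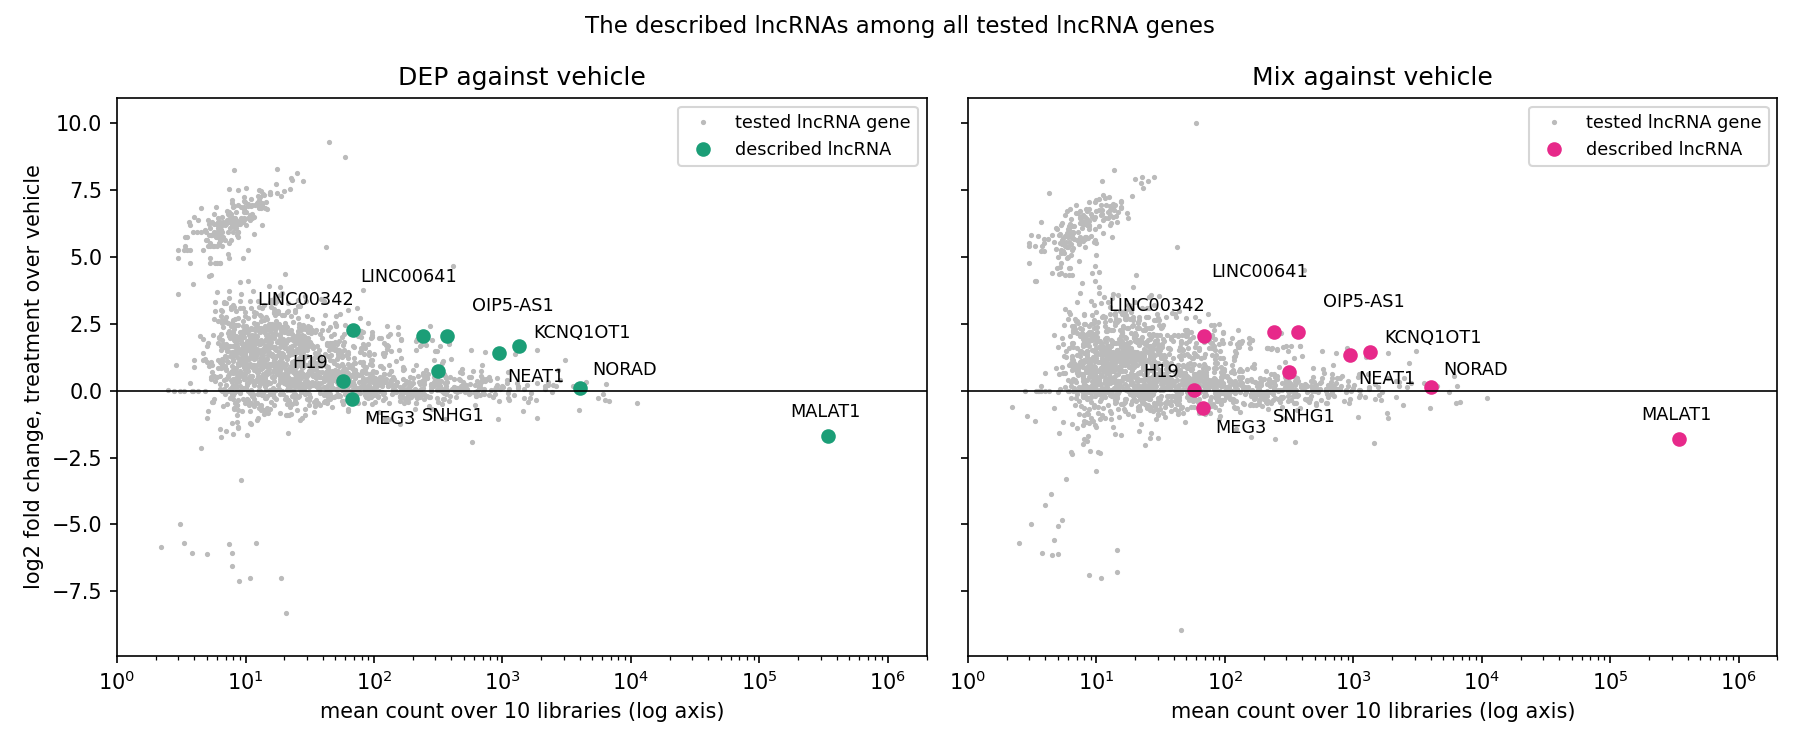
Log2 fold change over vehicle (vertical axis) against mean count over 10 libraries (horizontal log axis) for the 1875 tested lncRNA genes with DEP and Mix, with the 10 described lncRNAs coloured. MALAT1 stands alone at the right, at 340322 counts and below 0, and the other genes spread mostly above 0, more so at low counts where fitted values against few or no vehicle counts are no bound.

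How alike the members ran over the 10 libraries was measured as the root mean square difference of their mean-centred log2 CPM, over libraries that share treatment and depth. OIP5-AS1 and LINC00641 were closest to each other at 0.12, followed by NEAT1 and KCNQ1OT1 at 0.15 and OIP5-AS1 and LINC00342 at 0.18. MALAT1 was farthest, at 1.57 from LINC00641 and 1.37 from NEAT1. Among the 14190 other genes searched, the nearest to NEAT1 was LINC-PINT (0.11), a lncRNA induced by p53. It averaged 1.03 CPM with DEP, 1.63 with DProP, 1.73 with DPP, 1.10 with Mix and 0.368 with vehicle, the same split of the treatments as NEAT1. The nearest to MALAT1 were ACTA2 (smooth muscle actin, 0.16), CLDN1 (a tight junction claudin, 0.18) and the pseudogene EEF1A1P11 (0.20). CLDN1 averaged 2.38 to 2.84 CPM in treated groups and 11.1 in vehicle. The nearest to OIP5-AS1 were ND6, a complex I subunit encoded on the mitochondrial chromosome (0.12), and the lncRNAs CHASERR (0.13) and TUG1 (0.16), and ND6 and CHASERR were also the nearest to LINC00641. ND6 averaged 10.5 to 13.1 CPM in treated groups and 2.91 in vehicle. NORAD was nearest to CS, citrate synthase (0.03), and SNHG1 to LINC02656 (0.08).

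The 4 treatments share their dose and time, and the differences between them were not a criterion for choosing members. They were tested, but they follow from the fold changes against vehicle, which were already known. The tests are thus not independent of the choice. Over 6 comparisons and 10 members, 60 tests, 4 were called by edgeR. With DEP against DPP 1 member was called, where 2.93% of tested genes were, and with Mix against DProP 2 were, where 6.89% of genes were. With Mix against DPP 1 was called, where 17.3% of genes were. No member was called with DEP against DProP (0.524% of genes), DProP against DPP (0.262%) or Mix against DEP (3.86%), with 2, 0 and 0 members at an unadjusted p under 0.05, 1, 0 and 0 by DESeq2 and none by limma-voom. Mix was lower than the single compounds in the calls it took part in.

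**Figure D4:**
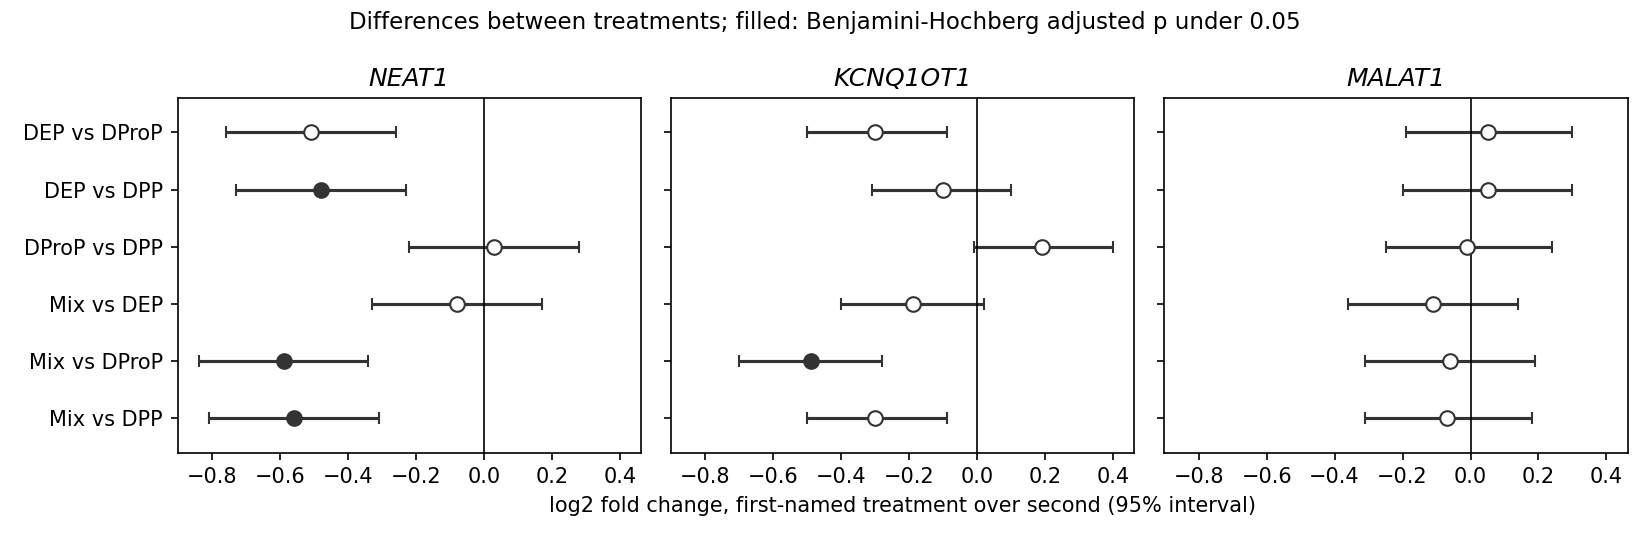
Log2 fold change of the first-named over the second-named treatment (horizontal axis, 95% interval) for NEAT1, KCNQ1OT1 and MALAT1 in the 6 comparisons, filled where the adjusted p is under 0.05. NEAT1 is lower in Mix than in DProP and DPP by 0.59 and 0.56 on the log2 scale, and every interval of MALAT1 includes 0.

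NEAT1 separated the treatments. It averaged 13.5 ± 0.447 CPM with DEP, 19.2 ± 1.27 with DProP, 18.8 ± 3.05 with DPP and 12.8 ± 0.302 with Mix (SD, n = 2 each). Mix was lower than DProP by a log2 fold change of -0.59 (SE 0.11, adjusted p = 0.0107, edgeR quasi-likelihood test) and lower than DPP by -0.56 (SE 0.11, adjusted p = 0.00610). DEP was lower than DPP by -0.48 (SE 0.11, adjusted p = 0.0455), and with the replicate number as a block this adjusted p was 0.0593, above the threshold. DEP against DProP gave a similar -0.51 that was not called (adjusted p = 0.0715, 95% interval -0.76 to -0.26). DProP and DPP differed by 0.03 (-0.22 to 0.28), and Mix and DEP by -0.08 (-0.33 to 0.17). Single libraries decided these calls. Mix against DPP had -0.39 without DPP replicate 2 (adjusted p = 0.0662). Mix against DProP had adjusted p-values of 0.0681, 0.0880 and 0.0503 without DProP replicate 1, Mix replicate 1 and Mix replicate 2. DEP against DPP had -0.30 without DPP replicate 2 (adjusted p = 0.405), and leaving out each other library gave up to 0.262, except DPP replicate 1, without which it stayed called. Neuronal markers split the treatments the other way: in CPM of the library total, STMN2 averaged 74.9 with DEP, 50.5 with DProP, 33.7 with DPP and 89.0 with Mix, and DCX 139.9, 91.9, 68.3 and 164. Their part in the NEAT1 differences was not tested.

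KCNQ1OT1 averaged 21.9 ± 1.49 CPM with DEP, 27.0 ± 1.50 with DProP, 23.6 ± 1.82 with DPP and 19.2 ± 0.239 with Mix (SD, n = 2 each). Mix was lower than DProP by a log2 fold change of -0.49 (SE 0.09, adjusted p = 0.0107 by edgeR), which was not called without DProP replicate 1, Mix replicate 1 or Mix replicate 2 (adjusted p = 0.0723, 0.0836 and 0.0525). Mix against DPP was -0.30 (SE 0.09, adjusted p = 0.0513), just outside the threshold. DEP against DProP was -0.30 (95% interval -0.50 to -0.09, adjusted p = 0.190).

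The other 8 members were not called between treatments. For MALAT1 the 6 log2 differences ran from -0.11 to 0.05, with 95% intervals inside -0.36 to 0.30. For NORAD the intervals lay inside -0.23 to 0.16, for SNHG1 inside -0.44 to 0.40 and for OIP5-AS1 inside -0.58 to 0.50. LINC00641 was lower in DEP than in DPP by -0.42 (SE 0.16, adjusted p = 0.193). H19 had the widest intervals, from -1.40 to 2.15.

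Genes that work with these RNAs are described as lists, by the calls of their single genes against vehicle in the same fit of the whole table. The lists were chosen with earlier results known, and no list was tested as a whole. Of 16 paraspeckle proteins, which NEAT1 gathers, 8 fell with DEP, 7 with DProP, 9 with DPP and 7 with Mix, and 1, 0, 1 and 0 rose. Over all tested genes 13.5%, 17.5%, 19.5% and 10.7% fell and 10.1%, 14.7%, 16.7% and 9.71% rose. The list medians were -0.20, -0.17, -0.21 and -0.18 on the log2 scale, beside 0.01 to 0.02 over all tested genes. SFPQ, a core paraspeckle protein, averaged 441 ± 10.6 CPM with DEP, 435 ± 21.4 with DProP, 469 ± 20.1 with DPP and 424 ± 7.60 with Mix, and 652 ± 82.6 with vehicle (SD, n = 2 each). Its log2 fold changes were -0.57, -0.58, -0.48 and -0.62 (largest adjusted p = 6.90e-04 by edgeR). HNRNPK, an RNA-binding protein, fell by 0.34, 0.51, 0.32 and 0.44 on the log2 scale, and SMARCA4, a chromatin remodeller, by 0.34, 0.36, 0.40 and 0.22. PSPC1, another core protein, was the gene that rose, by 0.18 with DEP and 0.16 with DPP (adjusted p = 0.0387 and 0.0464), and most single libraries left out ended those calls. The count that fell with DEP was 4 without DEP replicate 1 and also over 1.5 times smaller without vehicle replicate 1.

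Of 22 nuclear speckle proteins and MALAT1 partners, 5 fell with DEP, 5 with DProP, 8 with DPP and 4 with Mix, and 0, 1, 2 and 0 rose, where 13.5%, 17.5%, 19.5% and 10.7% of all tested genes fell. The counts with DEP, DProP and Mix are little above that background. The medians were -0.09, -0.07, -0.06 and -0.09. SRRM2, which builds the speckle core, fell by 0.39, 0.27, 0.39 and 0.31 on the log2 scale (largest adjusted p = 0.00976 by edgeR), and the splicing factors SRSF5 and U2AF2 fell with all 4, by 0.32 to 0.45. SRSF6 fell with DEP, DProP and DPP, and had -0.14 with Mix (adjusted p = 0.0776). Most of the list, 12 to 18 of 22, did not pass the test. The counts rest on single libraries: 3 without DEP replicate 1, 3 without DProP replicate 2, 4 without DPP replicate 2 and 1 without Mix replicate 1, and they were also over 1.5 times smaller without DPP replicate 1 (for DPP) and vehicle replicate 1 (for DEP and DPP).

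Of 14 listed neighbours of the imprinted H19, KCNQ1OT1 and MEG3, 10 passed the filter. Whether each neighbour, TSSC4 and CD81 among them, is itself imprinted in these cells was not tested. With DEP 5 fell and 0 rose, with DProP 6 and 1, with DPP 6 and 1, and with Mix 4 and 0, where 13.5%, 17.5%, 19.5% and 10.7% of all tested genes fell and 10.1%, 14.7%, 16.7% and 9.71% rose. The medians were -0.28, -0.40, -0.38 and -0.29. CDKN1C, a cell cycle inhibitor that KCNQ1OT1 is known to silence in cis, averaged 10.4 ± 0.0994 CPM with DEP, 9.34 ± 0.802 with DProP, 7.92 ± 0.917 with DPP and 9.52 ± 1.55 with Mix, against 15.6 ± 0.488 with vehicle (SD, n = 2 each), a log2 fold change of -0.58, -0.74, -0.97 and -0.71. With DEP the CDKN1C difference was not called in 2 of 20 alternatives (adjusted p up to 0.0603). PHLDA2, a growth-restraining gene of the same domain, went the other way and was the gene that rose, with DProP and DPP (log2 fold change 2.48 and 3.30, SE 0.80 and 0.78, adjusted p = 0.0424 and 0.0104 by edgeR). It had 2.32 with DEP and 1.33 with Mix (adjusted p = 0.0660 and 0.300), on 0 to 153 counts, and averaged 0.863, 0.968, 1.71 and 0.436 CPM with DEP, DProP, DPP and Mix and 0.164 with vehicle. The call with DProP was lost without any one of the DEP, DProP or Mix libraries. SLC22A18, on the same side of KCNQ1OT1 as CDKN1C, was not called with any treatment, at -0.13, 0.10, 0.01 and 0.08. TSSC4 and CD81, on the other side of KCNQ1, fell with all 4, by 0.24 to 0.44. TSSC4 was not called in 5, 1, 7 and 3 of 20 alternatives with DEP, DProP, DPP and Mix, and CD81 in 4, 0, 0 and 6. In the MEG3 domain, DIO3OS fell with DEP, DProP and DPP by 0.54, 0.93 and 0.72 and had -0.45 with Mix (adjusted p = 0.0839), and RTL1, a gene derived from a retrotransposon, fell with DEP, DProP and DPP by 0.90, 1.14 and 1.33 and had -0.22 with Mix (adjusted p = 0.568 by edgeR). DIO3OS was not called in 6, 0 and 1 of 20 alternatives with DEP, DProP and DPP. RTL1 was higher in Mix than in DPP by 1.11 (SE 0.26, adjusted p = 0.0126 by edgeR). The counts were 0 without DEP replicate 1 for DEP, 3 without DPP replicate 2 for DPP and 2 without DEP replicate 1 for Mix. For DEP and Mix they also moved over 1.5 times without either vehicle library or the group's own other library, and for Mix without DEP replicate 2.

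Of 8 partners of NORAD and OIP5-AS1, 0, 2, 1 and 0 rose and 0, 2, 1 and 1 fell with DEP, DProP, DPP and Mix. These counts are near the background, in which 9.71% to 16.7% of all tested genes rose and 10.7% to 19.5% fell. KHDRBS1 (SAM68), which NORAD also binds, fell with DProP and DPP by 0.33 and 0.29 on the log2 scale and had -0.20 with DEP and -0.13 with Mix (adjusted p = 0.0503 and 0.202 by edgeR). CDR1, the locus of the circular RNA that miR-7 also binds, fell with DProP and Mix (log2 fold change -1.44 and -1.44, adjusted p = 0.00744 and 0.0120 by edgeR). It had -0.66 with DEP and -0.32 with DPP (adjusted p = 0.155 and 0.466), on 21 to 64 counts. Reads of the circular RNA and of linear transcripts are not separated in these counts. These few calls rest on single libraries: the 2 that rose with DProP were fewer without any library except DProP replicate 1, those with DPP moved without DPP replicate 2, either DProP library or vehicle replicate 2, and the call with Mix was lost without Mix replicate 1 or vehicle replicate 2.

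Of 20 other small nucleolar RNA host genes, 19 were tested. With DEP 7 rose and 2 fell, with DProP 5 and 2, with DPP 6 and 3, and with Mix 4 and 2. Of all tested lncRNA genes 25.1%, 28.0%, 29.9% and 20.5% rose, and of all tested genes 10.1%, 14.7%, 16.7% and 9.71%, so that the counts that rose with DProP, DPP and Mix are near the share of lncRNA genes. The shares that fell were 0.853%, 1.33%, 1.97% and 0.853% of tested lncRNA genes and 13.5%, 17.5%, 19.5% and 10.7% of all tested genes. The counts that fell lie above the first and not above the second. SNHG5 rose with all 4 (log2 fold change 1.37, 1.23, 1.71 and 1.03, largest adjusted p = 0.00804 by edgeR), and the abundant SNHG29 and SNHG32 fell with all 4, by 0.33 to 0.52 and by 0.37 to 0.64. SNHG7 rose with DEP, DProP and DPP by 0.69, 0.61 and 0.81 and had 0.35 with Mix (adjusted p = 0.0824). The count of genes that rose was 2 without DEP replicate 2 for DEP, 2 without DProP replicate 2 for DProP and 2 without DEP replicate 1 for Mix. It also moved over 1.5 times without DEP replicate 1 and vehicle replicate 1 for DEP, without vehicle replicate 1 for DProP, and without 6 other libraries for Mix. Of the 7 tested small nucleolar RNAs in SNHG1 introns, SNORD26 was called with DEP and DPP (0.66 and 0.65, adjusted p = 0.0458 and 0.0352) and no other was called with any treatment. SNORD26 was not called in 14 of 20 alternatives with DEP and 10 of 20 with DPP.

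Other regulatory lncRNAs moved most. Of 22, 19 were tested, and 13, 16, 16 and 16 rose while 0, 1, 1 and 0 fell with DEP, DProP, DPP and Mix. Over all tested lncRNA genes 25.1%, 28.0%, 29.9% and 20.5% rose, and over all tested genes 10.1%, 14.7%, 16.7% and 9.71%. The shares that fell were 0.853%, 1.33%, 1.97% and 0.853% of tested lncRNA genes and 13.5%, 17.5%, 19.5% and 10.7% of all tested genes. The medians were 1.39, 1.40, 1.46 and 1.41, above the 0.65 to 0.88 of all tested lncRNA genes. MIAT, a neural lncRNA, averaged 44.4 ± 4.73 CPM with DEP, 52.8 ± 0.159 with DProP, 54.9 ± 0.971 with DPP and 56.1 ± 0.441 with Mix, and 20.0 ± 1.34 with vehicle (SD, n = 2 each). TUG1 rose by 1.74 to 1.92 on the log2 scale, RMST, which partners SOX2 in neurogenesis, by 1.66 to 1.87, and MIR100HG by 1.41 to 1.85. MIR9-1HG, the host of the neural microRNA miR-9, was the list gene that fell with DProP and DPP. Against vehicle it had -0.13, -0.31, -0.42 and 0.55 (adjusted p = 0.137, 0.00206, 2.53e-04 and 1.02e-04 by edgeR). It was higher in Mix than in DEP, DProP and DPP, by 0.67, 0.86 and 0.96 (SE 0.06 each, largest adjusted p = 3.29e-04 by edgeR). Of 16 genes of nuclear RNA decay and export, 3, 5, 5 and 1 rose and 1, 2, 2 and 0 fell, against 10.1%, 14.7%, 16.7% and 9.71% of all tested genes that rose and 13.5%, 17.5%, 19.5% and 10.7% that fell. UPF1, the helicase of nonsense-mediated decay, fell with DEP, DProP and DPP by 0.31, 0.33 and 0.35 and had -0.18 with Mix (adjusted p = 0.0590 by edgeR). PABPN1, the nuclear poly(A)-binding protein, fell with DProP and DPP by 0.23 and 0.38 and had -0.15 with DEP and -0.12 with Mix (adjusted p = 0.0746 and 0.175). ZFC3H1, which links the exosome to polyadenylated RNA, rose with DProP and DPP by 0.32 and 0.31 and had 0.19 with DEP and with Mix (adjusted p = 0.0580 and 0.0574). DIS3, an exosome nuclease, rose with all 4, by 0.18, 0.18, 0.30 and 0.19 (adjusted p = 0.0436, 0.0397, 0.00245 and 0.0445). DIS3 was not called in 9, 9, 0 and 10 of 20 alternatives, and with TMM over lncRNA genes alone it turned to as low as -0.34. The count that rose was 0 without DEP replicate 1 for DEP, 1 without vehicle replicate 2 for DProP and 3 without vehicle replicate 2 for DPP. It also moved over 1.5 times without either vehicle library, either DProP library or DEP replicate 2 for DEP, and without either DProP library or vehicle replicate 1 for DProP. The small protein-coding changes depend on the scaling. With TMM over lncRNA genes the medians of the paraspeckle, speckle and decay lists were -0.70, -0.59 and -0.40 with DEP, and with library size alone they were -0.04, 0.07 and 0.26, where the median of all genes moved by -0.50 and 0.16. The balance of calls turned with it. By library size alone 7 speckle proteins rose and 3 fell with DEP, 7 and 2 with DProP, 8 and 4 with DPP and 2 and 1 with Mix, and of the decay genes 11 rose and 0 fell with DEP, 10 and 0 with DProP, 9 and 2 with DPP and 9 and 0 with Mix. Of all 19465 tested genes, that scaling had 4794, 5850, 5820 and 4605 that rose and 1259, 1699, 2200 and 1020 that fell. On that scaling 3, 2, 3 and 0 paraspeckle proteins rose and 4, 6, 7 and 3 fell. Of the neighbours of H19, KCNQ1OT1 and MEG3, 1, 2, 1 and 0 rose and 2, 5, 5 and 1 fell. Of the partners of NORAD and OIP5-AS1, 2, 4, 5 and 1 rose and 0, 1, 0 and 1 fell. With TMM over lncRNA genes no speckle, paraspeckle or decay gene rose with any treatment, and all 16 paraspeckle proteins, 21 to 22 of 22 speckle proteins and 13 to 15 of 16 decay genes fell. That scaling also had 11991, 11658, 11628 and 9182 of all 19465 tested genes that fell, and 694, 811, 922 and 667 that rose. The host genes also turned on that scaling, with 2, 1, 2 and 2 that rose and 6, 6, 7 and 5 that fell, while 9, 10, 11 and 11 of the other regulatory lncRNAs rose and 2, 2, 3 and 0 fell.

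**Figure D5:**
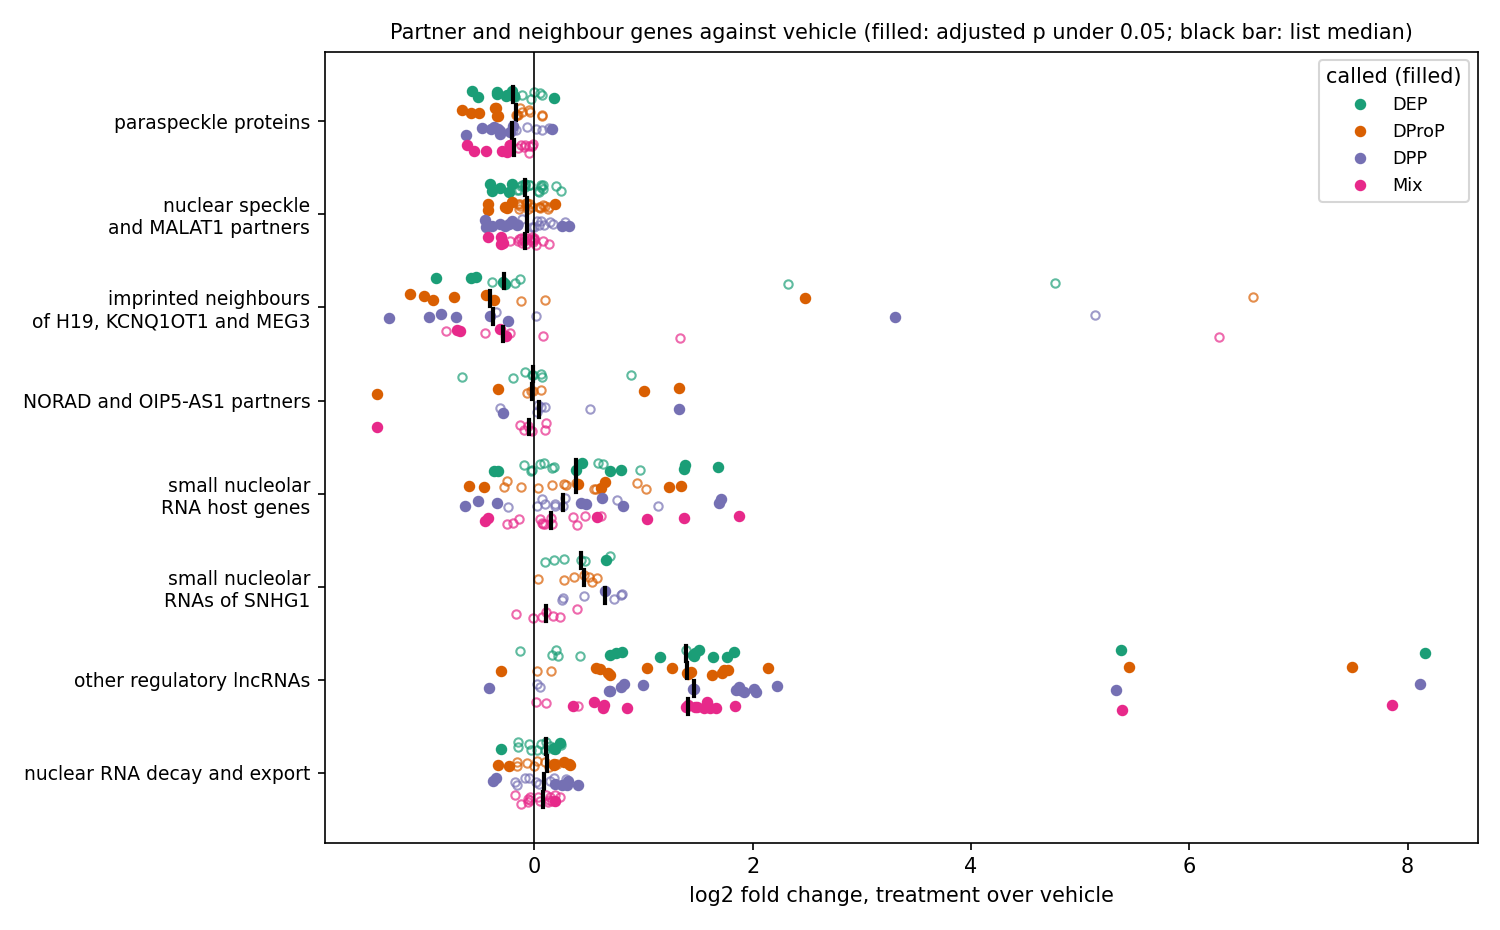
Log2 fold change over vehicle of the tested genes of 8 lists for the 4 treatments (filled, adjusted p under 0.05; open, not called; black bar, list median). Paraspeckle proteins have medians of -0.17 to -0.21 and the other regulatory lncRNAs medians of 1.39 to 1.46, and the few points far above the rest are genes with no or few vehicle counts, whose fitted values are no bound.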

How the data were processed

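Gene counts were deposited by the authors as whole numbers for 46427 genes in 10 libraries, 2 per group. Per the submitters' processing notes, reads were handled with StringTie 2.1.3b, HISAT2 2.1.0 and Trimmomatic 0.38 on GRCh38, and FastQC, R 4.3.2 and edgeR 4.0.9 are also named. No source used here gives the annotation release, the handling of strand or that of reads with several matches. Of the identifiers, 44698 matched RefSeq, which gave gene types, coordinates and promoters, and 30795 symbols matched a GENCODE 29 exon length. In all, 17765 genes had no count. The 10 lncRNAs and the lists of partner genes were chosen with earlier results of these data known, and their differences from vehicle are a description.

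Counts were fitted with edgeR 4.0.16 in R 4.3.3 (filterByExpr by group, TMM factors, robust quasi-likelihood test, 1 mean per group, all 10 libraries), which left 19465 genes, 5 residual degrees of freedom and a common biological coefficient of variation of 9.4%. P-values were adjusted by Benjamini-Hochberg over those genes in each comparison. Intervals are 95% intervals of the fit. The steps were tested on simulated data with known changes. Library totals were 57222381 to 72973100 counts, so counting error is small except for genes near 1 CPM. Replicates differed beyond counting noise (chi-square per gene 11.3 to 21.7).

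All 10 lncRNAs are named. The 3 genes most like each were ranked by the root mean square difference of mean-centred log2 CPM (prior count 2) among 14190 genes with a mean of at least 1 CPM. In each list the up to 4 genes with the smallest mean rank of p over the 4 comparisons with vehicle were named, together with neighbours and partners. Of the genes these rules name, 2 are not reported here. PSPC1, PHLDA2, SLC22A18, RTL1, MIR9-1HG, STMN2 and DCX were chosen after their values were seen. Alternatives were DESeq2 1.42.0, limma-voom (limma 3.58.1), other filters, other scalings, a replicate block, only the 2 groups compared, and leaving out each library.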

Additional observations from a re-analysis of the deposited data

Results flagged for a closer look

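In 4 instances the difference between 2 treatments at the same dose and time was itself past the threshold for a lncRNA described here, by the edgeR quasi-likelihood test with Benjamini-Hochberg adjustment over 19465 genes. NEAT1 was lower in Mix than in DProP by a log2 fold change of -0.59 (adjusted p = 0.0107), with both Mix libraries below both DProP libraries. NEAT1 was lower in Mix than in DPP by -0.56 (adjusted p = 0.00610). NEAT1 was lower in DEP than in DPP by -0.48 (adjusted p = 0.0455). KCNQ1OT1 was lower in Mix than in DProP by -0.49 (adjusted p = 0.0107). Groups of 2 libraries are too small to test a single library as an outlier.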

How the results depend on the processing

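Each count of calls and each named value was recomputed under up to 22 alternatives. Of 203 recomputations of the counts over members or over all lists, 182 stayed within 1.5 times the value reported. The member count for Mix against DPP moved further in 11 of 22, and the total over the 6 comparisons between treatments in 3 of 21. Counts of single lists by direction are not among the 203. Scaling by TMM over lncRNA genes alone moved the median of all genes by -0.36 to -0.51 on the log2 scale, and library size alone moved it by 0.14 to 0.18. With the first, NORAD turned to -0.40 with DEP, -0.40 with DProP, -0.31 with DPP and -0.21 with Mix, and the partner genes called numbered 86 with DEP (46 in the main analysis), 88 with DProP (55) and 80 with Mix (39). Of all 19465 tested genes it called 12685 with DEP (4601 in the main analysis), 12469 with DProP (6266) and 9849 with Mix (3970). Leaving out 1 library gave 23 to 46 partner genes called with DEP and 22 to 40 with Mix. The 4 calls of lncRNAs between treatments became 1 to 6 when 1 library was left out, with 1 call without DProP replicate 1, Mix replicate 1 or Mix replicate 2. For Mix against DPP there was 1 call, which became 2 with DESeq2, limma-voom, TMM over protein-coding genes, library size alone, relative log expression factors, the stricter filter, and without both vehicle libraries (chosen after seeing the data), and 0 to 2 when 1 library was left out. The call that came and went was KCNQ1OT1, at adjusted p between 0.0273 and 0.0488 where it was called. NEAT1 in DEP against DProP was called in 5 alternatives, with the smallest adjusted p of 0.00927 by DESeq2. Among 1054 recomputed values of single lncRNAs, 31 lost their call, 21 gained one and 4 reversed, and the cause was not tested. With the replicate number as a block 3 calls were left, and NEAT1 in DEP against DPP was not called (adjusted p = 0.0593). Replicate differences of 2 groups correlated at -0.121 to 0.167 over 14199 genes, so libraries of the same number showed no strong shared shift. That cannot tell whether they were handled as pairs. With the Mix numbers exchanged, chosen after seeing the data, Mix against DPP had 1 call. LINC00342 in vehicle rests on few counts, with a counting error of 25.4%. For H19 in DProP and MEG3 in DEP the spread of the pair, 76.4% and 34.7% of the mean, was larger than the counting error of 13.3% and 11.7%.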
